A study of Mus musculus with 112 samples.

Results

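The response of epididymal fat to a high-fat diet (HFD) was followed in male mice that carried the Pro12Ala variant of Pparγ on both chromosomes (Ala/Ala). The arrays were chosen by their titles, which name the tissue as eWAT, the white fat around the epididymis, and the genotype as Ala/Ala. This gave 17 of the 112 arrays of the series, 8 from mice on HFD and 9 from mice on chow, each from its own numbered mouse. Per the labels the variant was introduced as a knock-in, and the mice were chow-fed up to an age of 8 weeks and then either kept on chow or moved to HFD. The labels differ on the rest of the feeding: the series text gives 15 weeks on a feed of 5560 kcal/kg, and the sample descriptions give 12 weeks on a feed with 41% milk fat and 43% carbohydrate. Other arrays served for comparison, 20 from the fat of wild-type littermates (Pro/Pro, 10 on each diet) and 20 from the liver of Ala/Ala mice (10 on each diet), among them all 17 mice measured in fat. The variant is present outside fat as well, and no strain name was used here, since the labels give none.

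Pparγ is the nuclear receptor without which fat cells neither form nor persist. With its partner, a retinoid X receptor, it sits on enhancers of genes for taking up, storing and releasing fatty acids, and it turns them on or off through coactivators and corepressors. The Pro12Ala exchange lies in the amino-terminal stretch that the adipocyte isoform Pparγ2 has in addition. Epididymal fat of mice on a high-fat diet is a much used model of obesity: its adipocytes enlarge, its matrix is rebuilt, and macrophages gather around dying adipocytes.

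Values are log2 ratios of each mouse to a reference computed from the HFD Pro/Pro mice of its tissue, so that 0 stands for their mean and the pool cancels out of every difference between diets. Ratios carry no expression level, so genes were not set against each other by level. A difference is HFD minus chow on the log2 scale, ± its standard error from a limma fit over all 37 fat arrays, and a gene is said to have risen or fallen where its p-value, adjusted by the Benjamini-Hochberg method over 16643 genes, was under 0.05. Ranges are the lowest and highest of the 9 chow or the 8 HFD arrays. The arrays were close in their medians (-0.0658 to 0.0234), and the 9 chow arrays resembled each other more (median pairwise correlation over genes 0.584) than the 8 HFD arrays did (0.143), which lie around the pool.

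Some fat arrays held transcripts of other organs. The mean of 12 hepatocyte genes lay between -2.96 and -1.19 on 8 chow arrays and was 2.53 on chow Mouse113, and on HFD it was 2.22 on Mouse80 and 1.33 on Mouse99 against -2.55 to -0.88 on the other 6. The mean of 19 epididymis and testis genes was highest on HFD Mouse80 (-0.24) and Mouse128 (-0.38), and the other 15 arrays lay between -1.39 and -0.97. No member of the epididymis and testis list passed the diet test in limma (4 at an unadjusted p under 0.05), and of the hepatocyte list Cyp2e1 had a difference of -0.53 ± 0.13, or -0.35 without HFD Mouse152, and was the member called lower. Epithelial transcripts such as Epcam and Cdh1, chosen after their values were seen, varied more: the mean of 7 of them ran from -3.87 to 1.44 on chow and from -3.62 to 0.49 on HFD, so both diets held arrays with and without them. Counts of genes are therefore also given without Mouse80, Mouse99, Mouse113 and Mouse128, called below the 4 arrays with transcripts of other organs. Their limits were a hepatocyte mean above 0 or an epididymis and testis mean above -0.5. Arrays that were kept are not free of such transcripts, and epithelial transcripts were no part of the limits. Alb, the albumin gene, was at -0.75 on HFD Mouse152, -0.96 on HFD Mouse116 and -0.90 on chow Mouse109, against -4.27 on chow Mouse155. The part these transcripts have in other results was not tested. A fit without the 4 arrays has fewer mice, above all on HFD, so a call may end there through lower power alone. Which calls ended for that reason was not tested. In whole tissue, fewer cells of a type and less RNA per cell cannot be told apart.

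The response was broad and mostly small. Of 16643 genes, 2444 (14.7%) rose and 2120 (12.7%) fell on HFD, 27.4% in all. Counts in the gene lists below are to be read beside these shares. The median change was 1.23-fold among the genes that rose and 1.28-fold among those that fell. Changes of at least 2-fold were made by 95 genes upward (0.571%) and 49 downward (0.294%), and 13 genes rose at least 4-fold while none fell that far. In 388 genes (2.33%) the lowest HFD array lay above the highest chow array, and in 392 (2.36%) the order was reversed, 4.69% of genes in all. Without the 4 arrays with transcripts of other organs, and so with fewer mice, 1541 genes rose and 1386 fell. The genes that fell were longer: their median span in the genome (GRCm38.p6) was 30.4 kb, against 17.4 kb for the genes that rose and 21.3 kb for all genes measured.

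**Figure D1:**
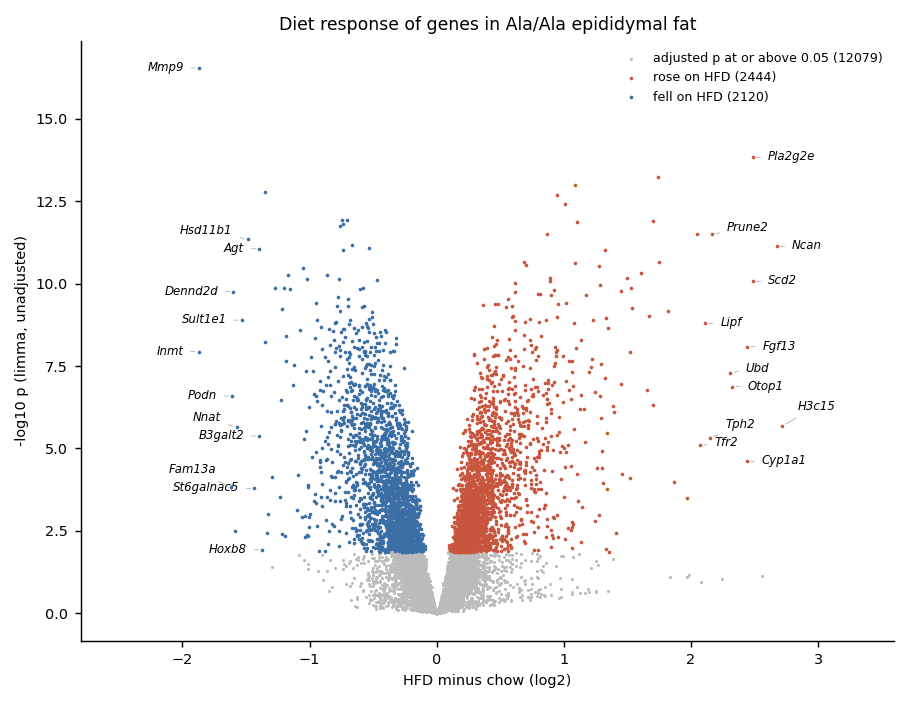
Diet difference (HFD minus chow, log2, horizontal axis) of 16643 genes in Ala/Ala fat against -log10 of the limma p-value before adjustment (vertical axis). Coloured points are the 2444 genes that rose and the 2120 that fell, and the 12 largest rises and 12 largest falls among genes with a name other than a clone number are labelled. The largest rises reach 2.72 and the largest falls -1.87.

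Among the largest rises were genes of lipid handling. Pla2g2e encodes a secreted phospholipase A2. Its ratios ran from -3.46 to -1.64 with a median of -2.42 on chow and from -0.31 to 0.53 with a median of 0.14 on HFD, and the groups did not overlap. The rise was 2.48 ± 0.20, or 5.6-fold (adjusted p = 1.22e-10). Scd2, a stearoyl-CoA desaturase that makes monounsaturated fatty acids, ran from -3.37 to -1.57 with a median of -2.16 on chow and from -0.78 to 0.46 with a median of 0.21 on HFD, again without overlap. It rose by 2.49 ± 0.27 (adjusted p = 3.62e-08). Lipf, the gene of gastric lipase, ran from -2.77 to -1.96 with a median of -2.37 on chow and from -1.31 to 1.14 with a median of -0.56 on HFD, with every HFD array above every chow array. It rose by 2.11 ± 0.26 (adjusted p = 2.79e-07).

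Other large rises came from genes best known from the nervous system. Ncan, a proteoglycan of the brain matrix, ran from -3.84 to -2.34 with a median of -2.79 on chow and from -1.11 to 0.39 with a median of -0.12 on HFD. The groups were clear of each other, and the rise was 2.67 ± 0.27 (adjusted p = 6.47e-09). Fgf13, an intracellular relative of the fibroblast growth factors that binds sodium channels, ran from -3.81 to -1.02 with a median of -2.41 on chow and from -0.70 to 0.79 with a median of 0.075 on HFD. Its groups did not overlap either, and it rose by 2.44 ± 0.33 (adjusted p = 9.1e-07). Tph2, the tryptophan hydroxylase that starts serotonin synthesis in neurons, ran from -2.25 to -1.14 with a median of -1.71 on chow and from -0.83 to 3.05 with a median of -0.092 on HFD, without overlap but with Mouse152 far above the other HFD arrays. It rose by 2.15 ± 0.40 (adjusted p = 9.93e-05). Prune2 rose by 2.16 ± 0.21 without overlap, called by 3 of its 4 probe sets.

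The remaining large rises were a mixed set. Ubd, a ubiquitin-like protein induced by inflammatory cytokines, ran from -2.68 to -1.68 with a median of -2.14 on chow and from -0.80 to 2.19 with a median of -0.057 on HFD and did not overlap. It rose by 2.31 ± 0.34 (adjusted p = 3.25e-06). Otop1, a proton channel found in brown fat, ran from -2.27 to -0.48 with a median of -1.72 on chow and from -1.09 to 1.79 with a median of 0.66 on HFD. One HFD array, Mouse117, lay within the chow range, and the rise was 2.33 ± 0.36 (adjusted p = 6.76e-06). Cyp1a1, a cytochrome P450 switched on by the aryl hydrocarbon receptor, ran from -3.83 to -0.36 with a median of -3.18 on chow and from -2.07 to 0.70 with a median of -0.18 on HFD, so that its groups overlapped widely although it rose by 2.44 ± 0.50 (adjusted p = 0.000344). Tfr2, a transferrin receptor that senses iron, rose by 2.07 ± 0.40 with overlapping groups. H3c15 had the largest difference of all, 2.72 ± 0.48, but it ran from -4.11 to -0.63 with a median of -2.54 on chow and from -1.38 to 1.31 with a median of 0.28 on HFD and belongs to the histone H3 genes, whose near-identical copies a probe set may not separate.

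The largest falls included a protease and a steroid enzyme with tight groups. Mmp9, the gelatinase that cuts basement membrane collagen, ran from 1.54 to 2.11 with a median of 1.95 on chow and from -0.52 to 0.33 with a median of 0.016 on HFD. No other gene had a smaller p in this comparison: the groups lay far apart and it fell by 1.87 ± 0.12, or 3.66-fold (adjusted p = 4.74e-13), with both of its probe sets lower. Hsd11b1, which regenerates active glucocorticoid inside fat cells, ran from 1.12 to 2.02 with a median of 1.38 on chow and from -0.62 to 0.42 with a median of 0.017 on HFD, without overlap. It fell by 1.49 ± 0.15 (adjusted p = 4.38e-09). Sult1e1, which inactivates estrogen by sulfation, ran from 0.64 to 1.54 with a median of 1.03 on chow and from -1.22 to 0.16 with a median of -0.70 on HFD and also did not overlap. It fell by 1.53 ± 0.19 (adjusted p = 2.46e-07).

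Agt, the gene of angiotensinogen, the precursor of the angiotensins, ran from 0.73 to 1.73 with a median of 1.18 on chow and from -1.02 to 0.023 with a median of -0.13 on HFD. Every HFD array was below every chow array, and Agt fell by 1.40 ± 0.14 (adjusted p = 6.93e-09). Inmt, a methyltransferase that acts on tryptamine and other amines, ran from 0.56 to 1.52 with a median of 0.99 on chow and from -1.96 to -0.10 with a median of -0.55 on HFD. It fell by 1.87 ± 0.26 without overlap (adjusted p = 1.07e-06). Dennd2d, an exchange factor for Rab GTPases, fell by 1.60 ± 0.18 and B3galt2, a galactosyltransferase, by 1.40 ± 0.26, both without overlap. Others of the 12 largest falls had overlapping groups: Fam13a, a gene tied to fat distribution in humans (-1.62 ± 0.38), Podn, a small leucine-rich proteoglycan (-1.61 ± 0.25), the imprinted gene Nnat (-1.57 ± 0.28) and St6galnac5, a sialyltransferase (-1.43 ± 0.34). The call of St6galnac5 ended without the 4 arrays with transcripts of other organs (adjusted p = 0.0554). That of Hoxb8, a homeobox gene (-1.38 ± 0.52), ended there too (adjusted p = 0.235) and without any 1 of 11 mice (adjusted p up to 0.104).

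**Figure D2:**
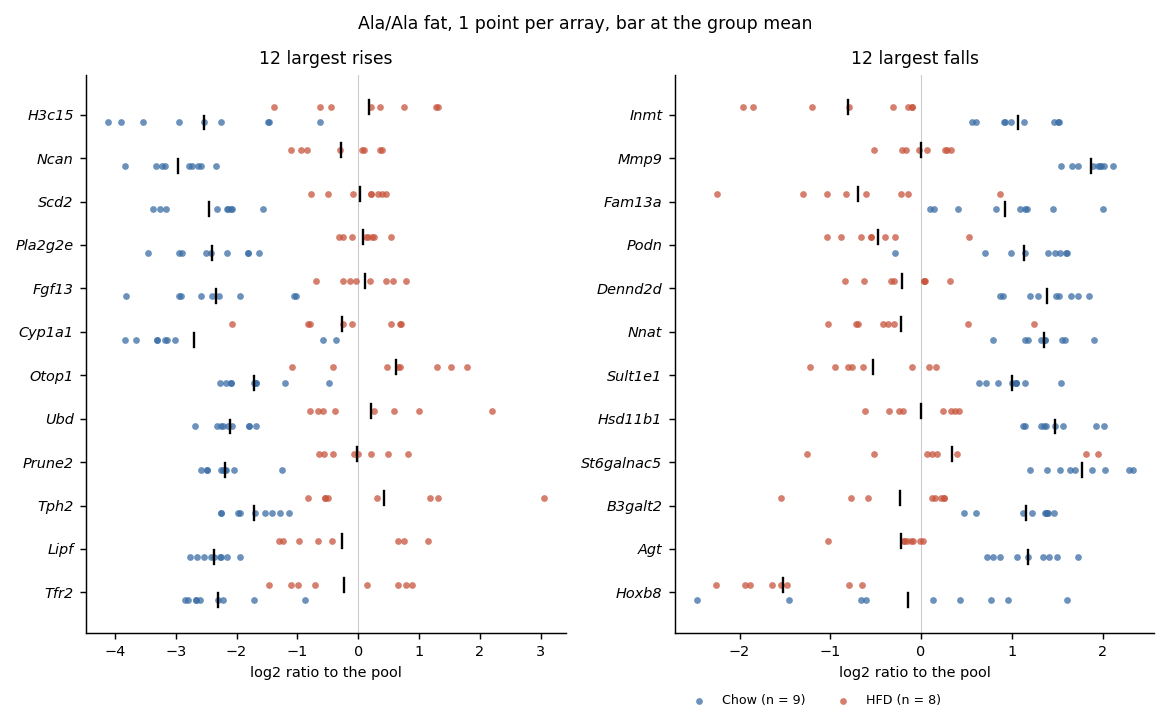
Log2 ratio to the pool (horizontal axis) of the 12 largest rises and 12 largest falls, 1 point per array, 9 chow and 8 HFD, with a bar at each group's mean. Ncan, Pla2g2e, Scd2, Mmp9 and Hsd11b1 show separate groups, while H3c15, Cyp1a1, Fam13a and Hoxb8 overlap.

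Pparg itself did not pass the test. It ran from -0.56 to 0.47 with a median of 0.26 on chow and from -0.30 to 0.16 with a median of 0.06 on HFD, with groups that overlapped almost fully and a difference of -0.077 ± 0.12 (adjusted p = 0.672). Its partners and coregulators moved downward: of 23 measured, 11 fell (47.8%, against 12.7% of all genes), 1 rose, and the median difference was -0.26, against 0.0429 over all genes. Ppargc1b, the coactivator PGC-1β that drives mitochondrial genes, ran from 0.26 to 1.38 with a median of 0.67 on chow and from -0.37 to 0.30 with a median of -0.11 on HFD. HFD Mouse77 and chow Mouse88 overlapped, and it fell by 0.79 ± 0.14 (adjusted p = 8.18e-05), although just 1 of its 2 probe sets passed. Sirt1, a deacetylase that docks to corepressors of Pparγ, ran from 0.29 to 0.75 with a median of 0.60 on chow and from -0.64 to 0.29 with a median of 0.12 on HFD and fell by 0.60 ± 0.11 (adjusted p = 0.000123). Ncoa6, a coactivator that links receptors to histone methylation, ran from 0.11 to 0.48 with a median of 0.35 on chow and from -0.20 to 0.082 with a median of -0.039 on HFD. Its groups did not overlap and it fell by 0.35 ± 0.057 (adjusted p = 1.94e-05). The acetyltransferase Ep300 fell by 0.33 ± 0.068, again without overlap, and its relative Crebbp by 0.57 ± 0.14. The member that rose was Cdk5 (0.27 ± 0.073), the kinase that phosphorylates Pparγ in obese fat, and its call ended without the 4 arrays with transcripts of other organs (adjusted p = 0.12). So did those of Crebbp, Ncoa1, Ncoa3, Nrip1 and Ppargc1a, and 7 members fell without these arrays.

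Genes that mark the adipocyte, many of them Pparγ targets, moved both ways. Of 27 measured, 6 rose (22.2%) and 4 fell (14.8%), with a median of -0.01, and without the 4 arrays with transcripts of other organs 3 rose and 3 fell. Trarg1, which travels with the glucose transporter GLUT4, ran from -1.04 to -0.47 with a median of -0.55 on chow and from -0.31 to 0.26 with a median of -0.16 on HFD without overlap. It rose by 0.56 ± 0.09 (adjusted p = 1.4e-05), and Cebpb, an early factor of adipogenesis, rose by 0.34 ± 0.079. Adipoq, the gene of adiponectin, fell by 0.14 ± 0.034 (adjusted p = 0.00129), a small change with narrow groups. Cebpa, the partner of Pparγ in mature adipocytes, fell by 0.16 ± 0.057, a call that ended without the 4 arrays named above (adjusted p = 0.0846) and without any 1 of 7 mice.

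Cholesterol synthesis was the list with the largest share of changed members. The pathway runs from acetyl-CoA through mevalonate, squalene and lanosterol to cholesterol, and the sterol-sensing factor SREBP-2 drives its genes through sterol regulatory elements in their promoters. Of 19 measured members 16 rose (84.2%, against 14.7% of all genes) and none fell. In order along the pathway, Hmgcs1 rose by 0.75, Mvk by 0.44, Pmvk by 0.73, Mvd by 0.91 and Idi1 by 0.88, which carry acetyl-CoA to the isoprenoid unit. Sqle, which oxidises squalene, rose by 0.54 and Lss, which closes the ring, by 1.45. The enzymes after lanosterol followed, Cyp51 (0.56), Tm7sf2 (1.22), Msmo1 (0.54), Nsdhl (0.99), Hsd17b7 (0.86), Ebp (0.36), Sc5d (1.08) and Dhcr7 (0.97). Fdft1 (0.041 ± 0.083, adjusted p = 0.745), the transporter Stard4 (0.38 ± 0.16, adjusted p = 0.0722) and the regulator Srebf2 itself (-0.079 ± 0.11, adjusted p = 0.633) did not pass.

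Idi1 and Lss kept the diets apart. Idi1 ran from -1.55 to -0.58 with a median of -0.98 on chow and from -0.44 to 0.17 with a median of -0.16 on HFD, without overlap (adjusted p = 1.53e-05). Lss ran from -1.87 to -1.25 with a median of -1.47 on chow and from -0.66 to 0.39 with a median of -0.062 on HFD, also without overlap (adjusted p = 5.6e-08). Insig1, the SREBP target that holds SREBP back, ran from -2.22 to -0.47 with a median of -1.35 on chow and from -0.97 to 0.32 with a median of -0.14 on HFD, with overlap, and rose by 1.24 ± 0.19 (adjusted p = 8.68e-06). The list mean was -1.11 to -0.52 on chow and -0.60 to 0.13 on HFD: HFD Mouse77 and chow Mouse88 overlapped and the other arrays were apart. Without the 4 arrays with transcripts of other organs 13 members rose, the calls of Cyp51, Msmo1 and Sqle ending, and the list's median was 0.54 in place of 0.75.

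A strict sterol regulatory element (TCACNCCAC, on either strand) was sought in the RefSeq promoters of build GRCm38.p6, which reach from 250 bases before to 50 bases after each gene's start. It was present in 408 of 32851 promoters (1.24%). Counted by gene, with a match in any of its promoters, it was present in 1 of the 16 of this list that had a promoter (6.2%). This was Hmgcs1, the gene of an early enzyme of the mevalonate pathway. The element was also found in 1 of 7 genes of the aryl hydrocarbon receptor battery (14.3%), Tiparp, and in none of those searched among the largest rises and falls. Shares by gene and the share over promoters are unlike measures, since a gene can have several promoters. The Hmgcs1 window at chr13:119690174-119690262, plus strand, bases -177 to -89 from the start, is shown with the element in capitals.
Hmgcs1: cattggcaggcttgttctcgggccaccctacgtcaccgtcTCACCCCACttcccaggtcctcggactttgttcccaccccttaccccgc
A match to these letters is a description of the promoter, and binding was not measured.

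Desaturases and elongases shape fatty acids after their synthesis. Of 14 measured 6 rose (42.9%) and none fell. Next to Scd2, Scd1 rose by 0.77 ± 0.17 and Scd3 by 0.88 ± 0.13, related genes that probe sets may not separate fully. Fads3, a member of the fatty acid desaturase cluster, ran from -1.0 to -0.40 with a median of -0.65 on chow and from -0.19 to 0.20 with a median of 0.079 on HFD, without overlap, and rose by 0.74 ± 0.091 (adjusted p = 2.43e-07). The elongases Elovl1 (0.31 ± 0.071) and Elovl5 (0.17 ± 0.056) rose slightly, the call of Elovl5 ending without Mouse80, Mouse121 or Mouse154 (adjusted p up to 0.0758), and Elovl6, which acts on newly made palmitate, had a difference of 0.0044 ± 0.32.

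Of 16 genes of de novo lipogenesis, the making of fatty acids from sugar, 3 rose (18.8%) and 2 fell (12.5%), near the shares of all genes, with a median of 0.04, and without the 4 arrays with transcripts of other organs 1 rose and 3 fell, with a median of -0.14. Mlxipl, the carbohydrate-sensing factor ChREBP, ran from 0.55 to 1.38 with a median of 0.81 on chow and from -0.46 to 0.16 with a median of -0.12 on HFD. The groups did not overlap and it fell by 1.08 ± 0.14 (adjusted p = 3.88e-07). Acaca, the acetyl-CoA carboxylase that commits carbon to fatty acids, fell by 0.53 ± 0.17. Acss2, which makes acetyl-CoA from acetate and is an SREBP target, went the other way. It ran from -2.48 to -0.59 with a median of -1.51 on chow and from -0.38 to 0.17 with a median of -0.16 on HFD, without overlap, and rose by 1.39 ± 0.23 (adjusted p = 2.45e-05). Fasn (-0.077 ± 0.094), Acly (0.027 ± 0.27), Acacb (-0.67 ± 0.42), Thrsp (-0.19 ± 0.17) and Srebf1 (-0.029 ± 0.076), among them the synthase itself and the factor SREBP-1, did not pass.

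In triglyceride synthesis 7 of 20 genes rose (35%, against 14.7% of all genes) and 3 fell (15%, against 12.7%), or 5 without chow Mouse88. The median was 0.03, and without the 4 arrays with transcripts of other organs 3 rose and 3 fell. The monoacylglycerol acyltransferase Mogat2 rose by 1.11 ± 0.28 and Agpat4 by 0.49 ± 0.092, while Gpat3 fell by 0.49 ± 0.13. The rises of Dgat2 (0.45 ± 0.14), Agpat2 (0.48 ± 0.17) and the glycerol channel Aqp7 (0.51 ± 0.13), and the fall of Pck1 (-0.53 ± 0.15), which feeds glycerol synthesis, were lost there. Of 15 droplet proteins 4 rose (26.7%, against 14.7% of all genes) and none fell. Plin2, which coats droplets in adipocytes and in foamy macrophages, ran from -0.91 to -0.33 with a median of -0.66 on chow and from -0.15 to 0.48 with a median of 0.066 on HFD. It rose without overlap by 0.73 ± 0.10 (adjusted p = 2.53e-06), and Hilpda, an inhibitor of the lipase ATGL, rose by 0.50 ± 0.14, Plin5 by 0.37 ± 0.12 and Fitm1 by 0.19 ± 0.065. Without Mouse149 the calls of Plin5 and Fitm1 ended (adjusted p = 0.0529 for Plin5), leaving 2 of the 15, and that of Fitm1 also ended without Mouse77, Mouse117, Mouse121 or Mouse122.

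In lipolysis and its adrenergic control 5 of 20 genes rose (25%, against 14.7% of all genes) and 1 fell (5%, against 12.7%). Without the 4 arrays with transcripts of other organs 2 rose and 2 fell, and 2 fell without HFD Mouse99 alone. Pde3b, the phosphodiesterase through which insulin restrains lipolysis, fell by 0.38 ± 0.091 (adjusted p = 0.00171), and Npr3, the clearance receptor of natriuretic peptides, rose by 0.44 ± 0.12 (adjusted p = 0.00551). The hormone-sensitive lipase Lipe (0.05 ± 0.074) and its partner Pnpla2 (-0.035 ± 0.08) did not pass. Of 19 genes of fatty acid uptake and binding 6 rose (31.6%, against 14.7% of all genes), or 3 without these arrays. In this list 1 fell (5.26%, against 12.7%), or 0 in 12 of the omissions of a single mouse. Acsl3, an acyl-CoA synthetase of nascent lipid droplets, ran from -1.59 to -0.78 with a median of -1.20 on chow and from -0.91 to 0.24 with a median of -0.13 on HFD, with HFD Mouse77 and Mouse117 inside the chow range. It rose by 0.94 ± 0.17 (adjusted p = 8.27e-05). Cd36 (-0.047 ± 0.052), Fabp4 (-0.052 ± 0.079) and Lpl (-0.074 ± 0.04), the main uptake genes of adipocytes, did not pass.

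Of 26 genes of fatty acid oxidation 7 rose (26.9%) and 2 fell (7.69%), with a median of 0.14. Pdk4 is a kinase that turns off the pyruvate dehydrogenase complex. It ran from -0.87 to -0.31 with a median of -0.63 on chow and from -0.29 to 0.91 with a median of 0.21 on HFD. With no overlap of the groups, it rose by 0.87 ± 0.17 (adjusted p = 0.000157). Cpt1b, the muscle form of the carnitine transferase, rose by 0.81 ± 0.16, the peroxisomal thiolase Acaa1b by 0.69 ± 0.11 and Decr1, which handles unsaturated fatty acids, by 0.52 ± 0.10. Hadhb, a subunit of the mitochondrial trifunctional protein, is unsettled: the probe set used here fell by 0.33 ± 0.072 and the other rose (0.23).

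In pyruvate entry and the tricarboxylic acid cycle 6 of 23 genes fell (26.1%) and 2 rose. Pdhx, which anchors the pyruvate dehydrogenase complex, fell by 0.71 ± 0.11 in 1 of its 2 probe sets, Dlst by 0.52 ± 0.079, Suclg2 by 0.46 ± 0.079 and Pdha1 by 0.37 ± 0.13. In oxidative phosphorylation 2 of 33 genes rose (6.06%, against 14.7% of all genes) and 5 fell (15.2%, near the 12.7% of all genes). Those that fell included Atp5c1 (-0.61 ± 0.08) and the succinate dehydrogenase subunits Sdha (-0.33 ± 0.074) and Sdhb (-0.20 ± 0.064). The rises numbered 0 without the 4 arrays with transcripts of other organs and after quantile normalization, and 1 without any 1 of 5 mice (Mouse99, Mouse109, Mouse113, Mouse128 or Mouse149). Without HFD Mouse152 3 of these 33 fell and the call of Sdhb ended (adjusted p = 0.055), while that of Pdha1 ended without Mouse120, Mouse121 or Mouse152 (up to 0.077). In glycolysis and glucose uptake 4 of 20 genes rose (20%, against 14.7% of all genes), or 1 without the 4 arrays named above. In the same list 2 fell (10%, against 12.7%), or 4 without chow Mouse113. Slc2a4, the gene of the insulin-regulated transporter GLUT4, had a difference of 0.055 ± 0.13 (adjusted p = 0.79).

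Breakdown of branched-chain amino acids, an activity of adipocyte mitochondria, fell in 7 of 21 genes (33.3%) and rose in 1. Ivd, which acts in leucine breakdown, ran from 0.31 to 0.65 with a median of 0.45 on chow and from -0.64 to 0.25 with a median of 0.0017 on HFD. The groups did not overlap and it fell by 0.56 ± 0.10 (adjusted p = 9.83e-05). Aldh6a1, which serves valine, ran from 0.30 to 0.61 with a median of 0.51 on chow and from -0.84 to 0.27 with a median of 0.028 on HFD, also without overlap, and fell by 0.52 ± 0.10 (adjusted p = 0.000192). Bcat1, the cytosolic aminotransferase at the head of the pathway, rose by 1.07 ± 0.16, while 1 of its 3 probe sets had a difference of -0.27. The falls numbered 3 after quantile normalization and 4 without HFD Mouse152.

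**Figure D3:**
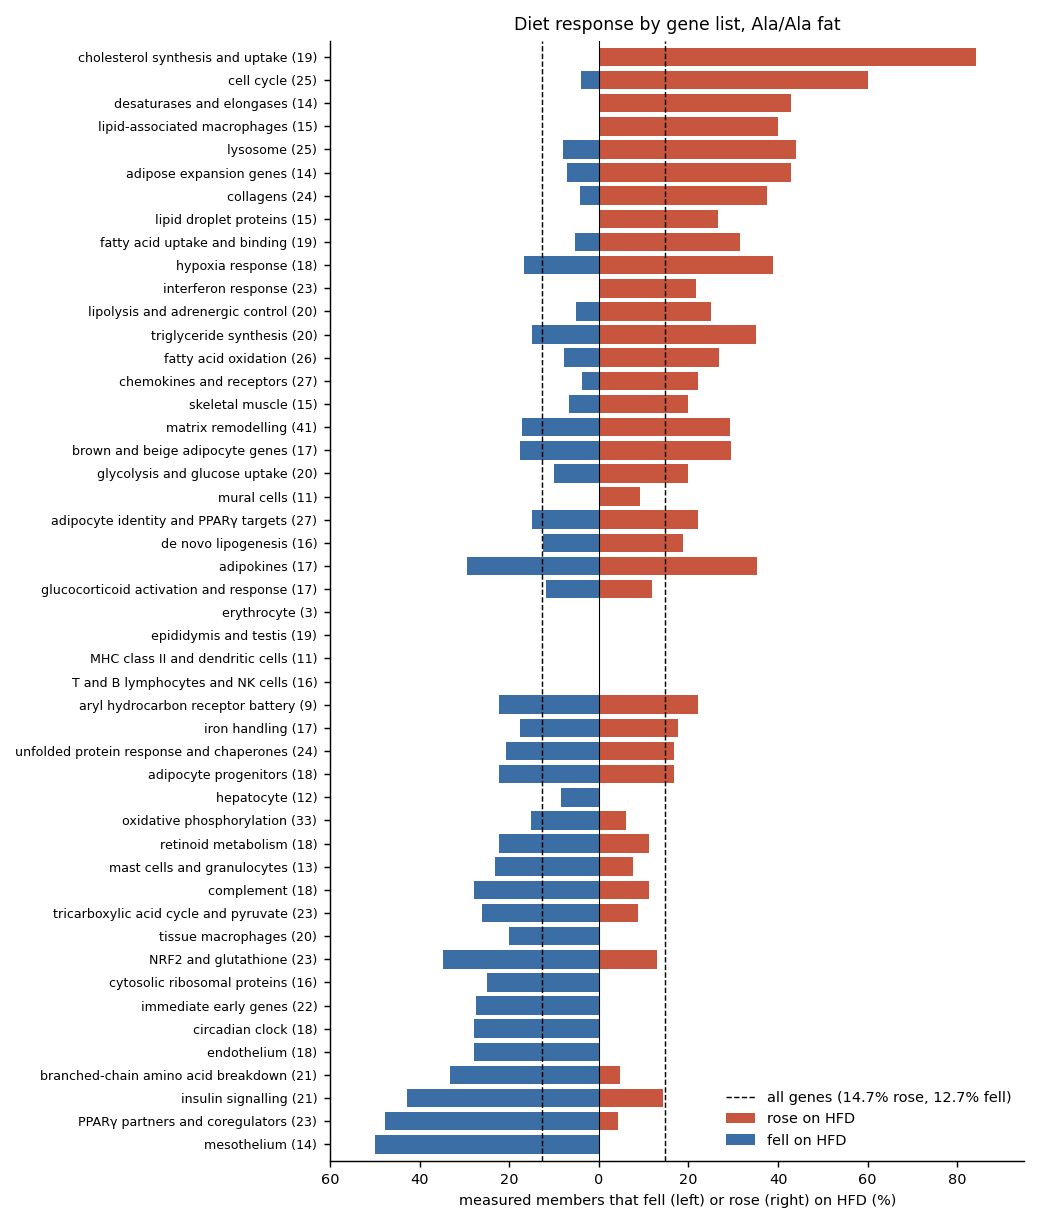
Share of the measured members of each gene list (percent, horizontal axis) that rose, to the right, or fell, to the left, on HFD in Ala/Ala fat, with the number of members beside each name. The dashed lines mark 14.7% and 12.7%, the shares of all 16643 genes, and cholesterol synthesis (84.2% rose), the cell cycle (60%) and the mesothelium (50% fell) lie farthest from them.

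Genes of insulin signalling fell in 9 of 21 cases (42.9%) and rose in 3. Insr, the insulin receptor, ran from 0.16 to 0.63 with a median of 0.46 on chow and from -0.39 to 0.12 with a median of -0.15 on HFD. No HFD array reached the chow range, and Insr fell by 0.57 ± 0.078 (adjusted p = 1.07e-06), by 1 of its 2 probe sets, the other showing -0.02. Pik3r1, the regulatory subunit of PI3-kinase, ran from -0.055 to 1.0 with a median of 0.49 on chow and from -1.06 to -0.035 with a median of -0.22 on HFD and fell by 0.77 ± 0.15 (adjusted p = 0.000148), with all 4 of its probe sets lower. Gsk3b, the kinase that insulin turns off to allow glycogen synthesis, fell by 0.52 ± 0.092, though its 6 probe sets ran from -0.52 to 0.47, and Pdpk1, which activates Akt, by 0.34 ± 0.08. The 3 rises were Irs3 (0.47 ± 0.14), Akt2 (0.26 ± 0.091) and Rhoq (0.30 ± 0.063), and those of Irs3 and Akt2 were lost without the 4 arrays with transcripts of other organs.

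Of 17 adipokine genes, which encode secreted products of fat, 6 rose (35.3%, against 14.7% of all genes) and 5 fell (29.4%, against 12.7%). Lep, the gene of leptin, which signals the size of fat stores to the brain, ran from -2.33 to -0.72 with a median of -1.48 on chow and from -0.46 to 0.38 with a median of 0.05 on HFD. The groups did not overlap and Lep rose by 1.45 ± 0.22, or 2.73-fold (adjusted p = 6.1e-06). Rarres2, the gene of chemerin, ran from -1.0 to -0.31 with a median of -0.69 on chow and from -0.082 to 0.16 with a median of 0.0088 on HFD, without overlap. It rose by 0.70 ± 0.074 (adjusted p = 1.65e-08), and the retinol carrier Rbp4 rose by 0.51 ± 0.087. Sfrp5, a secreted Wnt inhibitor, rose by 1.86 ± 0.43, Fgf21 by 0.33 ± 0.10 and the chemokine Ccl2 by 0.96 ± 0.32, lost without any 1 of 3 mice (adjusted p up to 0.0699). Besides Agt and Adipoq, Vegfa fell by 0.54 ± 0.16 in 1 of its 2 probe sets, adipsin (Cfd) by 0.44 ± 0.057 and Nampt by 0.30 ± 0.11, the last lost without any 1 of 7 mice (adjusted p up to 0.119). Resistin (Retn, -0.011 ± 0.042), Tnf (0.20 ± 0.10) and Il6 (0.087 ± 0.12) did not pass.

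A list set up to follow the growth of fat depots, chosen with earlier results of these data known, rose in 6 of 14 cases. This is 42.9%, against 14.7% of all genes. Tph2, named above among the largest rises, is counted here, so the count is no independent support. Mest, an imprinted gene whose level follows fat mass, ran from -2.22 to -0.91 with a median of -1.48 on chow and from -1.60 to 0.66 with a median of 0.22 on HFD. Mouse99 and Mouse128 lay in the chow range, and Mest rose by 1.46 ± 0.32 (adjusted p = 0.0007). Sfrp5 had the same 2 HFD arrays low: it ran from -3.09 to -0.67 with a median of -2.22 on chow and from -1.52 to 0.49 with a median of 0.09 on HFD and rose by 1.86 ± 0.43 (adjusted p = 0.00109). Cavin3, a caveolar coat protein, rose by 0.58 ± 0.10. Gulp1, an engulfment adaptor, fell by 0.84 ± 0.21, a call lost without the 4 arrays with transcripts of other organs. Trem2 (0.47 ± 0.29), Ehd2 (0.19 ± 0.094), Cavin1 (0.10 ± 0.059), Naaa (0.071 ± 0.095), Cavin2 (0.038 ± 0.082), Cav1 (0.00018 ± 0.031) and Cav2 (-0.03 ± 0.065) did not pass.

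Among 17 genes of brown and beige adipocytes 5 rose (29.4%, against 14.7% of all genes) and 3 fell (17.6%, against 12.7%). Without the 4 arrays with transcripts of other organs these numbers were 3 and 1. Cox7a1, a cytochrome oxidase subunit of heat-producing fat and muscle, ran from -2.0 to -0.67 with a median of -1.15 on chow and from -0.31 to 0.97 with a median of -0.007 on HFD. The diets were fully apart, and it rose by 1.29 ± 0.20 (adjusted p = 1.09e-05). Dio2, which activates thyroid hormone, rose by 0.55 ± 0.15, or by 0.35 without HFD Mouse77, Cox8b by 0.87 ± 0.25 and Zic1 by 0.18 ± 0.063, the last 2 only with these arrays kept. Ebf2, which opens the brown fat programme, fell by 0.58 ± 0.19. Ucp1, the uncoupling protein itself, ran from -0.72 to -0.23 with a median of -0.56 on chow and from -0.44 to 4.28 with a median of -0.19 on HFD, with HFD Mouse77 at 4.28 and the other 7 HFD arrays at -0.44 to 0.01, and it did not pass (0.84 ± 0.39, adjusted p = 0.105).

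Steroid and xenobiotic sensing changed at single points. Nr3c1, the glucocorticoid receptor, ran from 0.19 to 0.92 with a median of 0.51 on chow and from -0.16 to 0.18 with a median of -0.081 on HFD, without overlap. It fell by 0.56 ± 0.089 (adjusted p = 1.32e-05), next to Hsd11b1, while 2 others of the 17 glucocorticoid genes rose, Pdk4 and Angptl4 (0.26 ± 0.055). Rises and falls were 11.8% each, near the 14.7% and 12.7% of all genes, and 5 fell without chow Mouse88. In the battery of the aryl hydrocarbon receptor, Cyp1a1 rose and its relative Cyp1b1 did the opposite. Cyp1b1 ran from 0.11 to 1.09 with a median of 0.76 on chow and from -0.39 to 0.11 with a median of -0.0091 on HFD, HFD Mouse80 and chow Mouse88 overlapping, and fell by 0.75 ± 0.13 (adjusted p = 4.58e-05). Of the other 7 measured, Aldh3a1 rose (0.37 ± 0.13, or 0.21 without HFD Mouse80) and Tiparp fell (-0.30 ± 0.11), calls lost without any 1 of 3 and of 7 mice (adjusted p up to 0.0723 and 0.0923), and Ahr (0.13 ± 0.16), Arnt (0.25 ± 0.19), Ahrr (0.07 ± 0.094), Cyp1a2 (0.28 ± 0.40) and Nqo1 (-0.16 ± 0.13) did not pass. The core of its response element (TNGCGTG, either strand) lay in 5.07% of all 32851 promoters and in those of Ahrr, Fgf13, H3c15, Ncan and Insig1, but in that of no other of the 7 battery members, 11 largest rises and 10 largest falls searched. The search covered the same 250 bases before to 50 bases after the start, so elements farther away were not sought. As above, counts by gene and the share over promoters are unlike measures.

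Genes of the antioxidant response and of glutathione fell in 8 of 23 cases (34.8%) and rose in 3, or 6 and 1 without the 4 arrays with transcripts of other organs. Gpx3, the secreted glutathione peroxidase, ran from 0.59 to 1.40 with a median of 0.91 on chow and from -0.86 to 0.23 with a median of -0.22 on HFD. The groups did not overlap and it fell by 1.19 ± 0.15, or 2.28-fold (adjusted p = 5.16e-07). The glutathione transferases Gstt1 (-0.57 ± 0.10) and Gsta4 (-0.42 ± 0.16) and the rate-setting enzyme of glutathione synthesis, Gclc (-0.40 ± 0.10), fell too, Gsta4 losing its call without any 1 of 11 mice (adjusted p up to 0.143), and the extracellular superoxide dismutase Sod3 rose by 0.48 ± 0.13. Of 18 hypoxia genes 7 rose (38.9%, against 14.7% of all genes) and 3 fell (16.7%, against 12.7%). The rises numbered 4 without chow Mouse113 or all 4 arrays with transcripts of other organs. Higd1a, a mitochondrial protein induced by low oxygen, ran from -1.44 to -0.41 with a median of -0.94 on chow and from -0.27 to 0.27 with a median of 0.049 on HFD, without overlap, and rose by 0.95 ± 0.13 (adjusted p = 1.04e-06). Vegfa and Pdk1 (-0.57 ± 0.11), both standard targets of the hypoxia factor, fell, and Hif1a (0.42 ± 0.18) did not pass.

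Of 17 iron genes 3 rose and 3 fell (17.6% each, near the shares of all genes). The transferrin receptor Tfrc ran from -1.56 to -0.67 with a median of -0.87 on chow and from -0.83 to 0.34 with a median of -0.16 on HFD, with overlap, and rose by 0.70 ± 0.15 (adjusted p = 0.000565). Hfe, which binds it, rose by 0.63 ± 0.12. Ferroportin (Slc40a1), the exporter of iron, ran from 0.35 to 1.13 with a median of 0.66 on chow and from -0.51 to 0.69 with a median of -0.083 on HFD and fell by 0.71 ± 0.16 (adjusted p = 0.00102), and Heph, which oxidises the exported iron, fell by 0.48 ± 0.083. The ferritin chain Fth1 (-0.038 ± 0.026) did not pass.

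The extracellular matrix has collagens as its main fibres. Of 24 collagen genes 9 rose (37.5%) and 1 fell (4.17%), with a median of 0.22. Col12a1, which decorates collagen fibrils, ran from -1.04 to -0.30 with a median of -0.89 on chow and from -0.69 to 0.76 with a median of 0.14 on HFD, with overlap, and rose by 0.84 ± 0.18 (adjusted p = 0.000561). All 3 measured chains of type VI collagen, the pericellular net of adipocytes, rose, Col6a3 by 0.42 ± 0.08, Col6a2 by 0.42 ± 0.085 and Col6a1 by 0.26 ± 0.092 (lost without any 1 of 7 mice, adjusted p up to 0.114), and so did Col5a1 (0.44 ± 0.10). The fibril collagens Col1a1 (0.15 ± 0.15), Col1a2 (0.14 ± 0.16) and Col3a1 (0.0006 ± 0.074) did not pass. Col4a5 fell by 0.56 ± 0.20, a call lost without the 4 arrays with transcripts of other organs and without any 1 of 6 mice (adjusted p up to 0.087), and 0 to 4 collagens fell when single mice were left out.

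Of 41 genes that build or cut the matrix 12 rose (29.3%) and 7 fell (17.1%). Timp1, an inhibitor of metalloproteinases, ran from -1.71 to -0.85 with a median of -1.35 on chow and from -0.83 to 1.62 with a median of -0.078 on HFD, without overlap and with HFD Mouse152 high. It rose by 1.3 ± 0.28 (adjusted p = 0.000504). Tnc, tenascin C, a matrix protein of wounds, ran from -0.88 to -0.43 with a median of -0.69 on chow and from -0.35 to 0.55 with a median of 0.12 on HFD, without overlap, and rose by 0.72 ± 0.13 (adjusted p = 5.04e-05). The microfibril protein Fbn1 rose by 0.85 ± 0.22. Beside Mmp9, Dcn, the proteoglycan decorin, ran from 0.50 to 1.68 with a median of 0.92 on chow and from -0.057 to 0.48 with a median of 0.089 on HFD, and each HFD array was below each chow array. It fell by 0.87 ± 0.14 (adjusted p = 2.41e-05), by all 3 probe sets, and the proteases Adamts9 and Adamts1 fell by 0.82 ± 0.18 and 0.71 ± 0.18.

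Lysosomal genes rose in 11 of 25 cases (44%) and fell in 2. Npc2, which moves cholesterol out of the lysosome, ran from -1.27 to -0.84 with a median of -0.98 on chow and from -0.14 to 1.01 with a median of 0.17 on HFD. The groups did not overlap, and Npc2 rose by 1.27 ± 0.14 (adjusted p = 1.69e-08). The cathepsins Ctsd (0.38 ± 0.066), Ctsb (0.44 ± 0.083) and Ctsl (0.40 ± 0.094) rose, and the membrane protein Lamp2 fell by 0.42 ± 0.091. Without the 4 arrays with transcripts of other organs 5 rose and 1 fell, without chow Mouse113 or HFD Mouse80 alone 7 rose, and after quantile normalization 5 rose and 2 fell. The mean of the lipid-associated macrophage list stood high on the same arrays as the lysosomal mean: these were 1.21 and 0.51 on HFD Mouse152, 0.78 and 0.38 on HFD Mouse80 and 0.62 and 0.26 on chow Mouse109, while both were below 0 on the other 8 chow arrays. Both lists hold Gpnmb, Ctsk, Ctsd, Lipa and Atp6v0d2, so their means move together in part by construction. The part of these cells in the lysosomal rises was not tested.

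Markers of lipid-associated macrophages, the cells that surround dying adipocytes, rose in 6 of 15 cases (40%). A broader list of tissue macrophage genes mixes resident, recruited and pan-macrophage genes and also holds Cd68. It fell in 4 of 20 cases (20%), or 2 without the 4 arrays with transcripts of other organs, and rose in none. Itgax, the integrin CD11c, ran from -1.48 to -0.32 with a median of -1.02 on chow and from -0.66 to 1.84 with a median of 0.041 on HFD, with overlap, and rose by 1.10 ± 0.24 (adjusted p = 0.000713). The macrophage elastase Mmp12 ran from -3.02 to 0.78 with a median of -1.58 on chow and from -2.09 to 2.61 with a median of 0.54 on HFD, with wide overlap. It rose by 1.97 ± 0.50 (adjusted p = 0.00269). Lgals3, a lectin of activated macrophages, rose by 0.80 ± 0.16. Atp6v0d2 (1.36 ± 0.52, lost without any 1 of 13 mice, adjusted p up to 0.139), Plin2 and Ctsd were the other 3, and without chow Mouse109 the list had 10 rises. Cd68 (0.52 ± 0.22), Gpnmb (0.49 ± 0.38), Trem2, Slc37a2 (0.47 ± 0.25), Capg (0.34 ± 0.18), Ctsk (0.31 ± 0.18), Lipa (0.28 ± 0.13), Cd9 (0.0077 ± 0.15) and Lpl did not pass. The mean of these markers was -0.88 to -0.38 on 8 chow arrays and 0.62 on chow Mouse109, and on HFD it ranged from -0.60 on Mouse128 to 1.21 on Mouse152.

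Cd14, the coreceptor for endotoxin, ran from 0.37 to 1.21 with a median of 0.63 on chow and from -0.35 to 0.31 with a median of -0.048 on HFD. Both groups kept apart and it fell by 0.68 ± 0.12 (adjusted p = 7.92e-05), and Retnla, a marker of alternatively activated macrophages, fell by 0.37 ± 0.087. The pan-macrophage genes Adgre1 (0.17 ± 0.13) and Csf1r (-0.16 ± 0.087) did not pass. No member of the lymphocyte list (0 of 16) or of the list of MHC class II and dendritic cells (0 of 11) passed in limma, and at an unadjusted p under 0.05 there were 1 and 2. Among 13 mast cell and granulocyte genes the mast cell proteases Cma1 (-0.53 ± 0.14), Tpsb2 (-0.52 ± 0.16) and Cpa3 (-0.39 ± 0.14) fell and S100a8, a neutrophil protein, rose by 1.06 ± 0.31. Tpsb2 lost its call without HFD Mouse152 (adjusted p = 0.0511) and Cpa3 without any 1 of 9 mice (up to 0.0963).

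Of 27 chemokines and receptors 6 rose (22.2%), or 3 without HFD Mouse152, and 1 fell. Ccl2 (0.96 ± 0.32), Ccl8 (0.79 ± 0.30) and Cxcr4 (0.68 ± 0.22) were lost without the 4 arrays with transcripts of other organs, and Cxcl9, Ccl22 and Ccr7 (0.65 ± 0.12, 0.53 ± 0.11 and 0.49 ± 0.11) were kept. Cxcl12, which holds leukocytes in tissues, fell by 0.70 ± 0.15. Of 23 interferon-response genes 5 rose (21.7%, against 14.7% of all genes) and none fell. The rises numbered 3 without the 4 arrays or without chow Mouse113 or HFD Mouse99 alone. Gbp2, a guanylate-binding protein, ran from -0.56 to -0.20 with a median of -0.32 on chow and from -0.15 to 0.22 with a median of 0.12 on HFD, without overlap, and rose by 0.41 ± 0.087 (adjusted p = 0.000512). Other interferon-induced GTPases rose as well, Iigp1 by 0.63 ± 0.17 and Igtp by 0.30 ± 0.092.

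Of 18 complement genes 5 fell (27.8%), all of them components of the cascade, and 2 rose, both of them brakes on it. C2, the protease of the classical C3 convertase, ran from 0.47 to 1.39 with a median of 0.95 on chow and from -0.78 to 0.14 with a median of -0.19 on HFD, without overlap. It fell by 1.21 ± 0.14 (adjusted p = 5.12e-08). C3 ran from 0.24 to 1.06 with a median of 0.63 on chow and from -0.25 to 0.14 with a median of -0.039 on HFD, also without overlap, and fell by 0.69 ± 0.10 (adjusted p = 5.8e-06). C1s1 fell by 0.57 ± 0.10, C1ra by 0.53 ± 0.084 and adipsin as above. Cd59a, which blocks the membrane attack complex, ran from -1.24 to -0.051 with a median of -0.53 on chow and from 0.053 to 0.60 with a median of 0.31 on HFD, with every HFD array above every chow array. It rose by 0.85 ± 0.13 (adjusted p = 5.54e-06), and Cd55, which breaks up convertases, rose by 0.79 ± 0.14. The subunits of C1q, C1qa (-0.019 ± 0.087), C1qb (0.0092 ± 0.094) and C1qc (-0.051 ± 0.092), did not pass, nor did the brakes Serping1 (-0.13 ± 0.11) and Cfi (0.49 ± 0.63).

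Proliferation genes rose in 15 of 25 cases (60%, against 14.7% of all genes) and fell in 1. Cdk1, the kinase that drives mitosis, ran from -1.24 to -0.26 with a median of -0.64 on chow and from -0.14 to 0.64 with a median of 0.18 on HFD. The groups did not overlap and it rose by 0.95 ± 0.11 (adjusted p = 1.1e-07). Mki67, the standard marker of dividing cells, ran from -1.70 to -0.38 with a median of -0.77 on chow and from -0.53 to 1.22 with a median of -0.11 on HFD, with overlap, and rose by 1.02 ± 0.20 (adjusted p = 0.000212). The survivin gene Birc5 (1.17 ± 0.22), the topoisomerase Top2a (0.97 ± 0.19) and the ribonucleotide reductase subunit Rrm2 (1.0 ± 0.16) rose about as much. Mcm7, a subunit of the replicative helicase, went against them: it ran from 0.22 to 0.53 with a median of 0.39 on chow and from -0.23 to 0.20 with a median of -0.059 on HFD, without overlap, and fell by 0.41 ± 0.054 (adjusted p = 7.39e-07), while Mcm2 (0.25 ± 0.12), Mcm3 (0.14 ± 0.07), Mcm5 (0.37 ± 0.17) and Mcm6 (0.024 ± 0.12) did not pass. The list mean was highest on HFD Mouse152 (0.60), Mouse116 (0.29) and Mouse80 (0.27), and on chow it reached -0.09, on Mouse109. The same arrays had the highest means of the lipid-associated macrophage list on their diet (1.21, 0.29, 0.78 and 0.62 in that order), and the part of these cells in the rises was not tested.

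Of the cells that line and support fat, the mesothelium, the sheet that covers the depot, showed the largest share of falls, 7 of 14 markers (50%) with none higher. Wt1, its transcription factor, ran from 0.30 to 1.04 with a median of 0.74 on chow and from -0.33 to 0.17 with a median of -0.12 on HFD. No HFD array reached the chow range, and Wt1 fell by 0.80 ± 0.13 (adjusted p = 8.74e-06). Bnc1 fell by 0.76 ± 0.19, Upk3b by 0.67 ± 0.19 and Lrrn4 by 0.55 ± 0.17, and Nkain4 (-0.41 ± 0.13), Upk1b (-0.53 ± 0.18) and Rspo1 (-0.63 ± 0.20) fell but lost their calls without the 4 arrays with transcripts of other organs or without HFD Mouse117 alone, when 4 members fell. The keratins Krt7 (0.046 ± 0.16), Krt8 (-0.078 ± 0.45), Krt18 (-0.17 ± 0.55) and Krt19 (-0.12 ± 0.27), Msln (0.018 ± 0.19), Gpm6a (-0.31 ± 0.20) and Muc16 (-0.40 ± 0.22) did not pass. Krt8 and Krt18 also belong to the epithelial genes described above, whose mean varied widely between arrays of both diets. The part of epithelial transcripts in the mesothelial list was not tested.

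Endothelial markers fell in 5 of 18 cases (27.8%), or 3 without these 4 arrays, and rose in none. Vwf, the von Willebrand factor, ran from -0.23 to 0.75 with a median of 0.44 on chow and from -0.56 to 0.34 with a median of -0.14 on HFD, with overlap, and fell by 0.53 ± 0.14 (adjusted p = 0.00538), the angiopoietin receptor Tek fell by 0.35 ± 0.085 and its phosphatase Ptprb by 0.37 ± 0.055. Of 11 mural cell genes 1 rose, Cspg4, and its call was lost without the 4 arrays with transcripts of other organs, after quantile normalization and in 10 of the 17 omissions of a single mouse. Of 18 genes of adipocyte progenitors 3 rose (16.7%, against 14.7% of all genes), or 5 without HFD Mouse152, and 4 fell (22.2%, against 12.7%). Pdgfra, the receptor that marks these cells, ran from 0.43 to 1.06 with a median of 0.62 on chow and from -0.63 to 0.50 with a median of -0.009 on HFD and fell by 0.73 ± 0.12 (adjusted p = 3.2e-05). Thy1, a surface protein of stromal cells, ran from -0.86 to -0.46 with a median of -0.62 on chow and from -0.40 to 0.50 with a median of -0.07 on HFD, without overlap, and rose by 0.61 ± 0.10 (adjusted p = 9.95e-06). In the lists of other organs 3 of 15 skeletal muscle genes rose (20%, against 14.7% of all genes). The rises numbered 5 without Mouse116 or Mouse128 and 6 without Mouse88, and 1 of the 15 fell (6.67%, against 12.7%). Acta1 was at 0.92 ± 0.26 and Actn3 at -0.85 ± 0.13. None of 3 erythrocyte genes passed in limma (1 at an unadjusted p under 0.05).

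**Figure D4:**
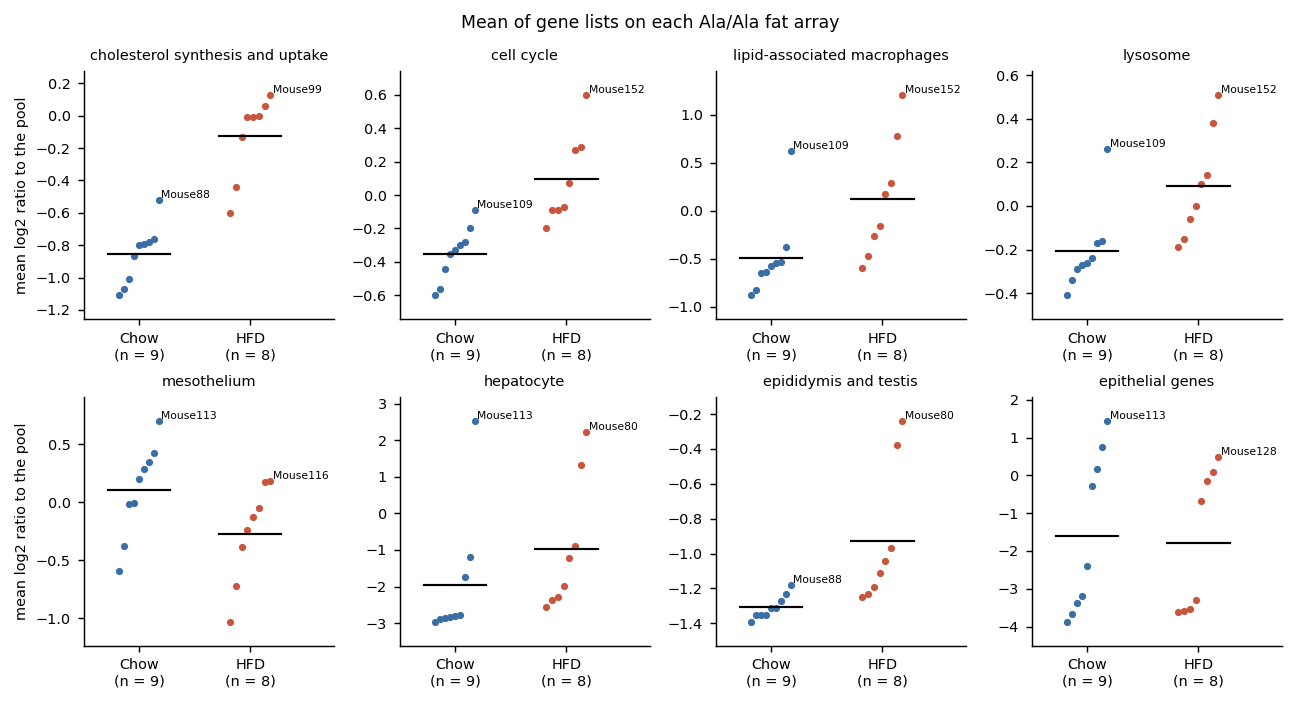
Mean log2 ratio to the pool (vertical axis) of 8 gene lists on each Ala/Ala fat array, 9 on chow and 8 on HFD, with a bar at the group mean. Cholesterol synthesis separates the diets but for chow Mouse88 and HFD Mouse77, lipid-associated macrophage markers overlap through chow Mouse109, and the hepatocyte mean is high on chow Mouse113 and HFD Mouse80 and Mouse99.

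In the fat of wild-type littermates 1940 genes rose (11.7%) and 2051 fell (12.3%). Rises in both genotypes numbered 1438, which is 58.8% of the Ala/Ala and 74.1% of the Pro/Pro rises, and falls in both 1530, or 72.2% and 74.6%. Of the genes that rose in Ala/Ala fat 96.2% had a positive difference in Pro/Pro, against 80% of all genes with a positive difference in Ala/Ala. For the falls it was 97.7% against 76.8%. Transcripts of other organs were also present in Pro/Pro fat: by the same limits, a hepatocyte mean above 0 or an epididymis and testis mean above -0.5, they were held by HFD Mouse111, Mouse137, Mouse143 and Mouse147, which are among the 10 arrays of the pool, and by chow Mouse73. Without these and the 4 Ala/Ala arrays 1796 genes rose and 1722 fell in Pro/Pro. The comparisons share no mouse, since each genotype has its own chow group. Of the 95 genes that rose at least 2-fold, 85 rose in Pro/Pro, and of the 49 that fell at least 2-fold, 40 fell. Ncan rose by 2.67 ± 0.27 and 2.66 ± 0.25 in the order Ala/Ala and Pro/Pro, Lss by 1.45 ± 0.16 and 1.37 ± 0.15, and Mmp9 differed by -1.87 ± 0.12 and -1.90 ± 0.11.

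The test of the difference itself, Ala/Ala diet response minus Pro/Pro diet response, called 0 genes with limma. At a false discovery rate of 0.20 it called 1 gene, and 731 genes had an unadjusted p under 0.05. The half-width of its 95% confidence interval, with no adjustment for the number of genes, had a median of 0.236 over genes, which is no limit of detection, since larger differences such as that of Smarca4 did not pass either. The smallest p belonged to Smarca4, the ATPase of a chromatin remodelling complex, which differed by -0.26 ± 0.10 in Ala/Ala, a call lost without any 1 of 9 mice, and by 0.41 ± 0.089 in Pro/Pro, a difference of -0.67 (95% confidence interval -0.94 to -0.40) that did not pass (adjusted p = 0.191). Chd7, another chromatin remodeller, differed by -0.51 ± 0.086 and 0.0073 ± 0.08, a difference of -0.52 (95% confidence interval -0.75 to -0.28) (adjusted p = 0.381). Cep112, N6amt1 and Pdap1 followed with differences of -0.37 (95% confidence interval -0.54 to -0.20), -0.39 (95% confidence interval -0.56 to -0.21) and -0.58 (95% confidence interval -0.85 to -0.30). Among the genes described above, Pik3r1 differed by -0.51 (95% confidence interval -0.93 to -0.10), Npc2 by 0.41 (95% confidence interval 0.035 to 0.78) and Otop1 by 0.89 (95% confidence interval -0.088 to 1.87) between the genotypes, each short of the threshold (adjusted p = 1, 1 and 1). Interferon genes rose in 5 of 23 cases in Ala/Ala and in 0 in Pro/Pro, and for Gbp2 the difference between genotypes was 0.24 (95% confidence interval -0.0024 to 0.48) (adjusted p = 1), so a difference in this list was not shown. For Pparg it was 0.13 (95% confidence interval -0.20 to 0.47).

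In the liver of Ala/Ala mice no gene passed the diet test (limma, 509 at an unadjusted p under 0.05) on 10 arrays a diet. The test of fat against liver called 2210 genes (13.3%), 1209 with the more positive diet difference in fat (7.26%) and 1001 with the more negative (6.01%). With mouse number as a replicate block, since the same animals gave both tissues, it called 1187 and 981. Pla2g2e had a diet difference of 0.03 ± 0.14 in liver, and the tissues differed by 2.46 ± 0.21 (adjusted p = 1.56e-14). For Ncan the liver value was 0.02 ± 0.18 and the difference between tissues 2.65 ± 0.27 (adjusted p = 7.12e-12). Mmp9 gave 0.11 ± 0.095 in liver and -1.98 ± 0.14 between the tissues (adjusted p = 2.06e-18). The other genes with the largest differences between tissues were Cyp1a1 (2.48 ± 0.50), Fgf13 (2.41 ± 0.32) and H3c15 (2.39 ± 0.54) upward and Inmt (-1.72 ± 0.35), Podn (-1.66 ± 0.26), Dennd2d (-1.60 ± 0.20) and Sult1e1 (-1.59 ± 0.21) downward. In the cholesterol list the median diet difference was 0.75 in fat and 0.43 in liver, and 7 of 19 were higher in fat by the test of the difference. Of 25 cell cycle genes 6 were higher in fat by that test and 1 lower, and of 14 mesothelial genes 4 were lower.

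**Figure D5:**
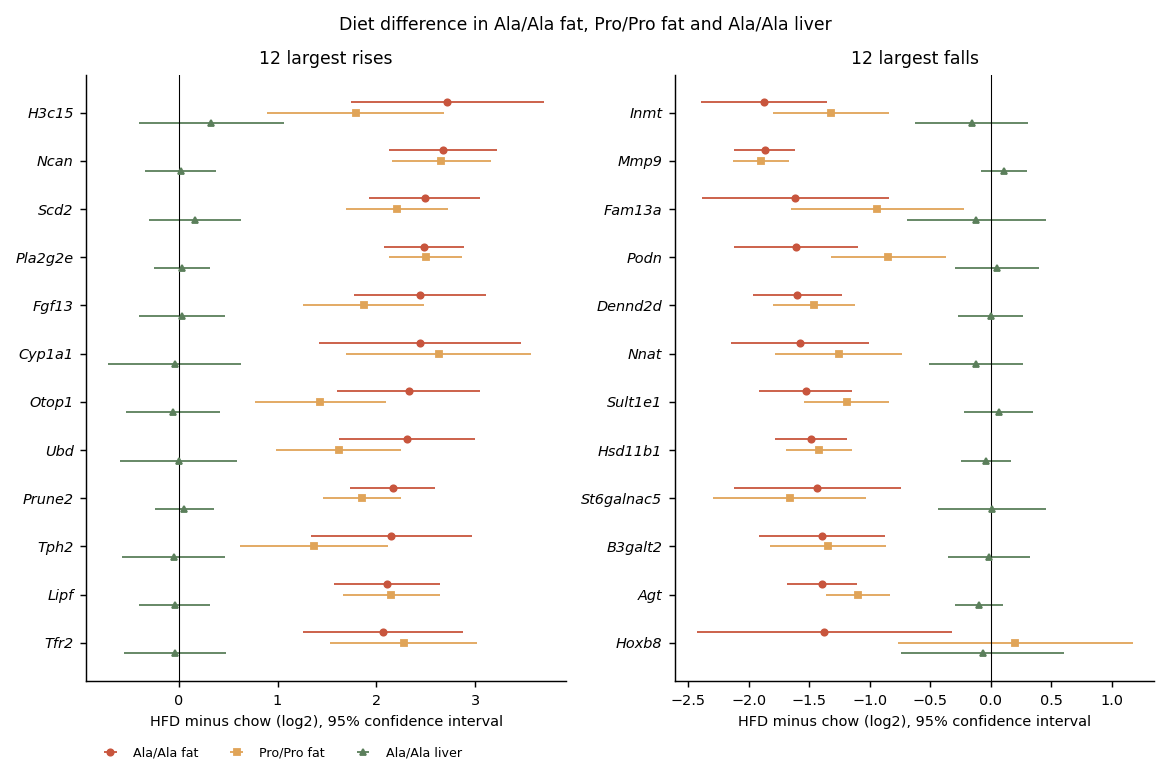
Diet difference (HFD minus chow, log2, horizontal axis) with its 95% confidence interval for the 12 largest rises and 12 largest falls, in Ala/Ala fat, Pro/Pro fat and Ala/Ala liver. The intervals of the 2 fat comparisons overlap for each of the 24 genes, and every liver interval includes 0.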

How the data were processed

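RNA of single mice was measured on Affymetrix mouse arrays, with the HFD Pro/Pro mice of the same tissue serving as a computed reference, per the labels. The labels also name Cy dyes, and the probe names are of a custom design, so the array type is not settled. The deposited values are log10 ratios, as Rosetta Inpharmatics made them for the authors, per the labels' protocols; how the arrays were normalized is not given in the sources used here. The sample descriptions name a pool of 10 wild-type samples. The direction was settled on the linear scale: the plain mean of the ratios of the 10 HFD Pro/Pro arrays has a log10 within 0.001 of 0 in 100% of probe sets in fat and in liver, as mouse over pool requires. Turning the ratios over moved this log10 away from 0, in the median of the most variable probe sets by 0.2004 (fat) and 0.0816 (liver). In muscle, not used here, 10.54% met the limit. Some pairs of arrays ran opposite (lowest correlation -0.316). Of 554880 ratios 29 were at the floor of -6.64 (log2).

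Ratios were converted to log2. Of 32640 probe sets 25508 had 1 gene symbol, and the probe set with the highest mean variance within tissues stood for each of 16643 genes. Group means over the 37 fat arrays, or the 77 of fat and liver, were fitted with limma 3.58.1 (R 4.3.3) and Benjamini-Hochberg adjustment. The code was tested on simulated data. The labels assign no array to a culture, litter or batch. The p-values rest on the spread between mice within groups, and effects of litter or batch could not be set apart. The text names the 12 largest rises and falls with a gene name, up to 4 members of each list by p, Pparg, and the leading genes of the genotype and tissue comparisons. Other list members were named after their values were seen, and the genes and lists were chosen with earlier results of these data known. The expression filter of the series text was not used, since ratios hold no level. Heterozygotes and muscle were left out.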

Additional observations from a re-analysis of the deposited data

Results flagged for a closer look

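Arrays that lay far from the rest of their diet group were sought in the 270 genes and 6 list means whose values the text gives, by setting the gap of the highest or lowest array to its neighbour against the range of the group. Of 552 groups 47 held such an array, and chance gives about 1 in 20 (5%, or 27.6 groups). Values are log2 ratios to the pool.

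Chow Mouse109 stood above the other chow arrays in genes of macrophages and lysosomes, with Gpnmb at 2.33, Atp6v0d2 at 1.88, Trem2 at 1.42, Cd14 at 1.21, Slc37a2 at 1.15, Cd68 at 0.91, Adgre1 at 0.79, C1qb at 0.58, C1qc at 0.57, Lipa at 0.46, Ctsk at 0.40 and Ctsl at -0.03. The mean of the lipid-associated macrophage list was 0.62 there, and Actn3, a muscle gene, was 1.10. Chow Mouse113 held the high hepatocyte mean, 2.53, and was high in Cyp1a2 (2.21) and Gclc (0.83), and it was low in S100a8 (-2.79), Ccl2 (-2.25), Cdk5 (-0.56), Cav2 (-0.16), Retn (-0.15) and Asns (-0.04). Among the other chow arrays, Mouse120 was apart in Vegfa (1.61), Gsta4 (0.53) and Col6a1 (-0.59), Mouse114 in Acta1 (1.18), Mouse121 in Podn (-0.29) and Mouse88 in Nr1d2 (-0.39) and Prune2 (-1.25).

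HFD Mouse152 was above the other HFD arrays in Itgax (1.85), Col6a3 (0.74) and Csf1r (0.57). It was below them in Cyp2e1 (-1.44), Pik3r1 (-1.06), Agt (-1.02), Aldh6a1 (-0.84), Asns (-0.72), Pde3b (-0.62), Suclg2 (-0.58), Nampt (-0.56) and Pdha1 (-0.39). HFD Mouse77 stood out in genes of brown fat, with Ucp1 at 4.28, Dio2 at 1.62 and Cox7a1 at 0.97. HFD Mouse80 was high in Aldh3a1 (1.36) and HFD Mouse117 low in Nkain4 (-0.87).

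Diet differences that differed between the fat and the liver of Ala/Ala mice, by the test of that difference, are given for the genes named above (log2, fat minus liver). They were 2.65 for Ncan, 2.48 for Cyp1a1, 2.46 for Pla2g2e, 2.41 for Fgf13 and 2.39 for H3c15, and -1.98 for Mmp9, -1.72 for Inmt, -1.66 for Podn, -1.60 for Dennd2d and -1.59 for Sult1e1.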

How the results depend on the processing

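In the test of HFD against chow, a false discovery rate of 0.20, the rate of the series text, called 4463 genes higher and 3235 lower, in place of 2444 and 2120, and the methods' t-test at that rate called 4057 higher and 3119 lower. Quantile normalization called 1502 higher and 1841 lower. All probe sets tested without choosing 1 per gene gave 4026 higher and 4755 lower probe sets, the genes above the median variance alone 1016 and 1045, and a test against a log2 change of 0.5 (treat) 56 and 22. An alternative added after seeing the data, which left out the 4 arrays holding other organs' transcripts, gave 1541 higher and 1386 lower, and the epithelial transcripts as a covariate, also added then, 2683 and 2340. Leaving out single mice gave 1955 to 2635 higher and 1916 to 2254 lower. Each array centred on its median gave 1956 higher and 2430 lower, so whether more genes rose or fell turned with the centring (53.5% of the calls were higher as reported, 44.6% after centring and 44.9% after quantile normalization). The difference between genotypes was called in 1 gene at a false discovery rate of 0.20 and in 0 in every single omission (0 to 0). The difference between fat and liver was called in 4632 genes at a false discovery rate of 0.20, in 1250 of the genes above the median variance, in 1394 without the 4 arrays and in 1773 to 2332 with single mice left out. With mouse number as a replicate block it was called in 2168, with a correlation between the tissues of a mouse of -0.00823. No paired analysis was possible for HFD against chow because no mouse was on both diets.

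Of 205 called genes with values in the text, 27 lost their call when a single mouse was left out, and 1 mouse decided for Cxcr4 (Mouse152, adjusted p = 0.0565), Nkain4 (Mouse117), Plin5 (Mouse149), Sdhb and Tpsb2 (both Mouse152). None reversed in any alternative run with 1 value per gene. With all probe sets taken singly, those of Hadhb, Gsk3b and Bcat1 differed in sign, as given above. Ratios carry no depth or signal over background, so weakly expressed genes were not set apart. The labels do not say whether arrays were run in batches.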

Other observations

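Some other groups of genes held members that changed on HFD in Ala/Ala fat. Of 18 genes of the circadian clock 5 fell (27.8%, against 12.7% of all genes) and none rose in limma (0 also at an unadjusted p under 0.05), and without the 4 arrays with transcripts of other organs 1 fell. Without HFD Mouse152 alone 3 fell and without chow Mouse88 alone 8. Per3, a period gene whose protein represses the clock, ran from 0.063 to 1.12 with a median of 0.70 on chow and from -0.55 to 0.19 with a median of -0.23 on HFD. The groups overlapped, and Per3 fell by 0.78 ± 0.17 (adjusted p = 0.000626). Nr1d2, a repressor of the clock's positive arm, fell by 0.66 ± 0.19 and Clock by 0.44 ± 0.11, calls that ended without those arrays (adjusted p = 0.101 and 0.106). The time of day at which tissue was taken was not among the labels used here. Of 22 immediate early genes, which respond within minutes to stimuli and to handling of tissue, 6 fell (27.3%), or 3 without those arrays and 3 to 10 when single mice were left out (3 without chow Mouse109, 10 without chow Mouse121), and none rose. Klf4, a growth-arrest factor, ran from 0.14 to 0.97 with a median of 0.59 on chow and from -0.25 to 0.25 with a median of -0.11 on HFD, with overlap, and fell by 0.60 ± 0.13 (adjusted p = 0.000382), and Myc fell by 0.55 ± 0.11, while Fos had a difference of 0.20 ± 0.26 (adjusted p = 0.599). Of 16 cytosolic ribosomal protein genes 4 fell (25%), or 1 without those arrays and 2 without Mouse109, Mouse113, Mouse122 or Mouse149 alone, with Rps24 at -0.57 ± 0.067.

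In the unfolded protein response 4 of 24 genes rose (16.7%, against 14.7% of all genes) and 5 fell (20.8%, against 12.7%). Without the 4 arrays and after quantile normalization 1 rose and 3 fell, and 3 fell without any 1 of 7 mice. Xbp1, its transcription factor, ran from 0.13 to 0.76 with a median of 0.41 on chow and from -0.13 to 0.17 with a median of 0.019 on HFD, with overlap, and fell by 0.38 ± 0.08 (adjusted p = 0.000461), and Asns, an asparagine synthetase of the amino acid response, fell by 0.43 ± 0.10. Edem1, which marks misfolded glycoproteins for removal, rose by 0.32 ± 0.094. Of 18 retinoid genes 2 rose (11.1%) and 4 fell (22.2%), or 2 and 2 without the 4 arrays. Aldh1a7, a cytosolic aldehyde dehydrogenase, ran from -1.38 to -0.55 with a median of -1.08 on chow and from -0.33 to 0.14 with a median of -0.11 on HFD, without overlap, and rose by 0.92 ± 0.10 (adjusted p = 5.31e-08), while Rdh10, which makes retinaldehyde, fell by 0.38 ± 0.081 and Retsat, a retinol saturase, by 0.35 ± 0.10. The difference between the genotypes passed for none of these genes.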
